A study of Rattus norvegicus with 16 samples.

Results

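The DNA methyltransferase genes Dnmt1, Dnmt3a and Dnmt3b were examined in messenger RNA of rat testicular germ cells (GCs), 3 of the 26560 genes in the count files. They were chosen by Ensembl identifier: ENSRNOG00000039859 (Dnmt1), ENSRNOG00000026649 (Dnmt3a) and ENSRNOG00000010625 (Dnmt3b). Each row lay on the expected chromosome and none was dropped. The symbols were assigned to the identifiers when the genes were chosen, because the files hold identifiers alone.

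Male Sprague-Dawley rats whose GCs carry an eGFP transgene ate a high fat diet (HFD, 40% of calories as fat by the sample labels) or a control diet (CD, 10%) from weaning to 19 weeks of age. The study's text gives a higher fat content for the HFD. Cells were released from the testes with collagenase and sorted on eGFP, and each library came from 1 rat, with 4 rats on each diet. The labels give no stage for the GCs. Both diet groups carried the same transgene, and the rats came from a line the study calls semi-inbred. The mRNA libraries gave between 38633043 and 62038805 counts on genes, and 8 small RNA libraries were made from GCs of the same diet groups.

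DNA methyltransferases add a methyl group to cytosine, mostly where it precedes guanine. DNMT1 copies the methylation pattern onto the new strand after DNA replication, while DNMT3A and DNMT3B set methylation on DNA that lacked it. In the male germ line most methylation is laid down before birth, when DNMT3A works with its partner DNMT3L, and dividing spermatogonia of the adult testis need DNMT1 to keep the pattern.

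All 3 transcripts were scarce in these GCs. Dnmt3a had the highest level per length, Dnmt1 an intermediate level and Dnmt3b the lowest, and this order held in 8 of 8 libraries. None of the 3 genes passed the test for a difference between HFD and CD, and for each of them the values of both diets overlapped.

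The counted gene models, on the rn5 genome build, differ in size. Dnmt1 lies on chromosome 8 from 21978830 to 22024656 on the minus strand, with 40 exon intervals and 5911 bases of exon. Dnmt3a spans 104654 bases of the plus strand of chromosome 6, from 38044960 to 38149613, with 22 exon intervals and 4173 bases of exon. Dnmt3b is the most compact, at 155524090 to 155549356 on the plus strand of chromosome 3, with 22 exon intervals and 3881 bases of exon. The exons of no other listed gene overlapped those of a member, and no other gene lay within a member's span (0 in each case). RefSeq lists 3 pseudogenes named after Dnmt3a, 2 after Dnmt3b and 0 after Dnmt1 on the GRCr8 build. Copies listed under other names were not searched for. Because the authors counted uniquely aligned reads, reads shared with a near-identical copy could be lost or misplaced. The levels of at least Dnmt3a and Dnmt3b carry this added uncertainty. The nearest gene on the lower-coordinate side of Dnmt1, 6.85 kb away, had 5596 to 9885 counts per library, against 42 to 92 for Dnmt1 itself. The nearest gene on its other side had 0 counts in every library.

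**Figure D1:**
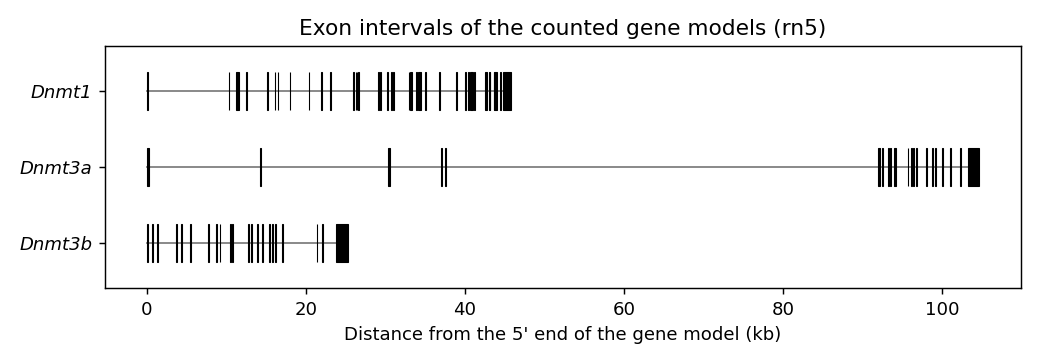
Exon intervals (black blocks) of Dnmt1, Dnmt3a and Dnmt3b along each counted gene model on rn5, with distance from the gene's 5′ end in kb on the x axis. Dnmt1 has 40 intervals and the other genes 22 each, and a long intron without exons separates the first exons of Dnmt3a from the rest.

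Dnmt1, the maintenance enzyme, was represented by 482 reads over the 8 libraries. The HFD libraries, in the order of replicates 1 to 4, held 61, 92, 55 and 44 of them, and the CD libraries 48, 42, 74 and 66. Scaled by library size with edgeR's TMM factors, these were 1.498, 1.37, 1.247 and 0.963 counts per 1e6 reads (CPM) on HFD and 1.16, 1.15, 1.38 and 1.43 CPM on CD. The highest and the lowest of the 8 values were both HFD libraries, replicates 1 and 4, so that the CD values lay inside the HFD range. The means were 1.27 ± 0.229 CPM on HFD and 1.28 ± 0.143 CPM on CD (SD, n = 4 each).

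Dnmt3a, the de novo enzyme of the fetal male germ line, was represented by 611 reads. In the same order, 78, 95, 59 and 56 of these fell in the HFD libraries and 108, 54, 94 and 67 in the CD libraries. The scaled values were 1.92, 1.42, 1.34 and 1.23 CPM on HFD and 2.62, 1.48, 1.75 and 1.45 CPM on CD. CD replicate 1 stood above all others. The remaining CD libraries lay below HFD replicate 1 but above HFD replicates 2 to 4. The overlap of the diets thus rested on HFD replicate 1, a library singled out from these same values. How many of all genes would separate the diets with 1 library so left out was not counted. The means were 1.47 ± 0.305 CPM on HFD and 1.82 ± 0.546 CPM on CD (SD, n = 4 each).

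Dnmt3b, the second de novo enzyme, was represented by 79 reads in all. The HFD libraries contributed 7, 14, 15 and 4 reads, and the CD libraries 12, 6, 9 and 12. These gave 0.172, 0.209, 0.340 and 0.0876 CPM on HFD and 0.291, 0.165, 0.168 and 0.260 CPM on CD. As for Dnmt1, both extremes were HFD libraries, here replicates 3 and 4. The means were 0.202 ± 0.105 CPM on HFD and 0.221 ± 0.0643 CPM on CD (SD, n = 4 each).

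For comparison between genes, CPM was divided by exon length in kb to give reads per kb of exon and 1e6 reads (RPKM). Over all 8 libraries Dnmt3a was at 0.395 ± 0.108 RPKM, Dnmt1 at 0.216 ± 0.0299 RPKM and Dnmt3b at 0.0544 ± 0.0209 RPKM (mean ± SD, n = 8). By diet, Dnmt3a was at 0.353 ± 0.0730 RPKM on HFD and 0.437 ± 0.131 RPKM on CD (n = 4 each). The Dnmt1 means were 0.215 ± 0.0387 and 0.217 ± 0.0242 RPKM, and the Dnmt3b means 0.0521 ± 0.0271 and 0.0568 ± 0.0166 RPKM, on HFD and CD respectively. The lowest Dnmt3a value, 0.294 RPKM, was above the highest Dnmt1 value, 0.254 RPKM, and the lowest Dnmt1 value, 0.163 RPKM, was above the highest Dnmt3b value, 0.0877 RPKM.

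**Figure D2:**
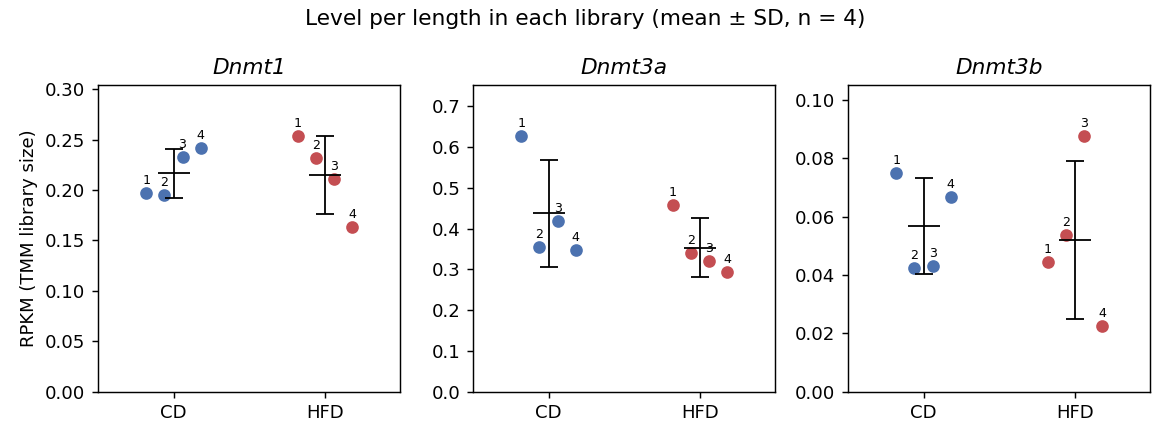
RPKM of each gene in every library, by diet, with replicate numbers beside the points and mean ± SD (n = 4) in black; each panel has its own y axis starting at 0. The diets overlap for all 3 genes, and CD replicate 1 has the highest Dnmt3a value, 0.627 RPKM.

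The order of the genes was tested within libraries, by an exact sign-flip permutation test of the difference in log2 RPKM. With 8 libraries the smallest two-sided p this test can give is 0.0078, which all 3 pairs reached (adjusted over the 3 pairs, also 0.0078). This p measures only how consistent a difference was between libraries. An error shared by all libraries, as in a gene's counted length or its share of uniquely aligned reads, cannot be detected by it. Dnmt3a exceeded Dnmt1 in 8 of 8 libraries, by 0.85 ± 0.37 on the log2 scale (SD) or 1.80-fold. The fold between them was 3.19 in CD replicate 1 and between 1.44 and 1.82 in the other libraries. Dnmt3a exceeded Dnmt3b by 2.92 ± 0.59 on the log2 scale, with folds of 3.66 to 13.02 in single libraries. The widest of these ratios came from HFD replicate 4, where Dnmt3b had 4 counts. Dnmt1 exceeded Dnmt3b by 2.08 ± 0.55 on the log2 scale, or 4.22-fold, with a range of 2.41 to 7.22. Of the summed RPKM of the 3 genes, Dnmt3a made up 58.9 ± 5.82%, Dnmt1 33.0 ± 4.75% and Dnmt3b 8.15 ± 2.98% (mean ± SD, n = 8). The share of Dnmt1 was 34.7 ± 1.65% on HFD and 31.3 ± 6.50% on CD (n = 4 each), and its lowest share, 21.9%, was that of CD replicate 1.

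Against the 19446 genes whose mean count reached 1, all 3 levels were in the lower part of the range. The median gene had 1.56 RPKM and the upper quartile began at 13.2 RPKM. Of these genes, 33.2% had a lower RPKM than Dnmt3a, 25.6% a lower RPKM than Dnmt1 and 10.4% a lower RPKM than Dnmt3b. A low level in sorted GCs as a whole can reflect few cells with the transcript or little of it per cell, and bulk libraries cannot tell these apart. The study checked the purity of the sorted cells by qPCR. Whether any of the members' reads came from remaining somatic cells was not tested. The stage of the cells was not resolved, since each library pooled the sorted GCs of 1 rat. The reference table matched 0 of the 26560 identifiers to symbols. Markers of germ cell stages and of somatic testis cells therefore could not be looked up. The same limit applied to partners such as Uhrf1 and Dnmt3l and to the genes of demethylation and methyl donor supply, which were not analysed here.

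**Figure D3:**
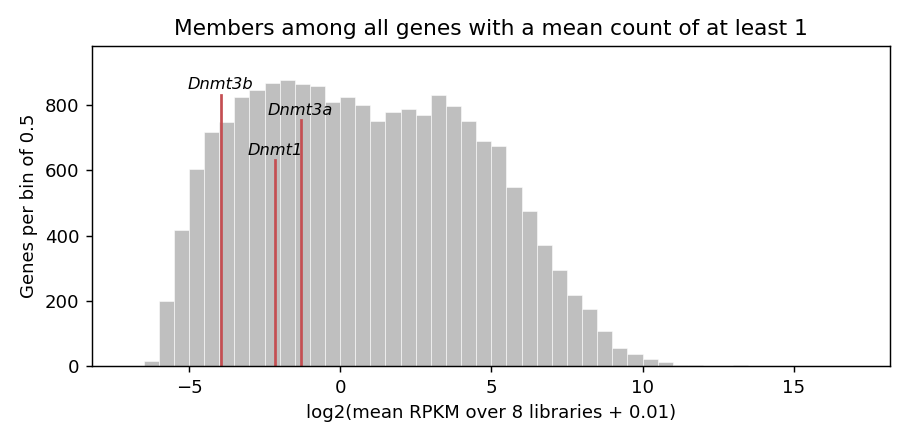
Number of genes per bin of log2 RPKM (mean of 8 libraries, 0.01 added, bins 0.5 wide) for the 19446 genes tested, with red lines at the 3 members. Dnmt3b sits near the lower edge of the distribution, and Dnmt1 and Dnmt3a lie below the median of 1.56 RPKM.

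The diets were compared with edgeR's quasi-likelihood test, fitted over all 19446 genes with Benjamini-Hochberg adjustment. None of the 3 members passed an adjusted p of 0.05, where the background share of genes called was 0% (0 genes by edgeR, 725 genes or 3.73% at an unadjusted p under 0.05, and 6 genes by DESeq2 with shrunken fold changes). The unadjusted count depended on single libraries, from 412 genes (2.12%) without CD replicate 1 to 3379 genes (17.5%) without CD replicate 4. Dnmt1 differed by a log2 fold change of -0.014 (HFD over CD, SE 0.20, edgeR adjusted p = 0.989), with a 95% interval of -0.45 to 0.42. The interval corresponds to an HFD level between 0.733 and 1.34 times that on CD. Dnmt3a had the widest difference of the 3, a log2 fold change of -0.31 (SE 0.23, edgeR adjusted p = 0.8293) with a 95% interval of -0.82 to 0.20, or 0.566 to 1.15 times the CD level. Dnmt3b differed by -0.12 (SE 0.46, edgeR adjusted p = 0.960), with a 95% interval of -1.14 to 0.90. Its 79 reads therefore left room for anything from 0.454 to 1.86 times the CD level. Two-sided exact permutation tests of CPM over the 70 labellings of 4 against 4, whose smallest p is 0.0286, gave p = 0.971 for Dnmt1, p = 0.314 for Dnmt3a and p = 0.857 for Dnmt3b. All 3 estimates were below 0, as were those of 51.2% of all genes. The diets' CPM ranges were separate for 0 of the 3 members and for 2.12% of all genes.

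Single libraries set the sign of the smaller differences. The Dnmt1 log2 fold change rose above 0 when HFD replicate 4, CD replicate 3 or CD replicate 4 was left out (0.095, 0.023 and 0.041). That of Dnmt3b did so without HFD replicate 4 (0.12) or CD replicate 1 (0.028). The Dnmt3a estimate was below 0 whichever library was left out, but its size rested on single libraries. It was -0.46 without HFD replicate 1 (edgeR unadjusted p = 0.091, adjusted p = 0.997). Without CD replicate 1 it was -0.093 (edgeR unadjusted p = 0.67). With all 8 libraries the unadjusted edgeR p for Dnmt3a was 0.21. The adjusted p also depends on all other genes. Without HFD replicate 1, 452 genes had an unadjusted p under 0.05, against 725 with all 8 libraries. CD replicates 1 and 2 also stood apart from the other 6 libraries when all genes were clustered, although correlations of variance stabilised values between libraries were 0.990 to 0.997. Without both of them the Dnmt3a log2 fold change was -0.12.

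**Figure D4:**
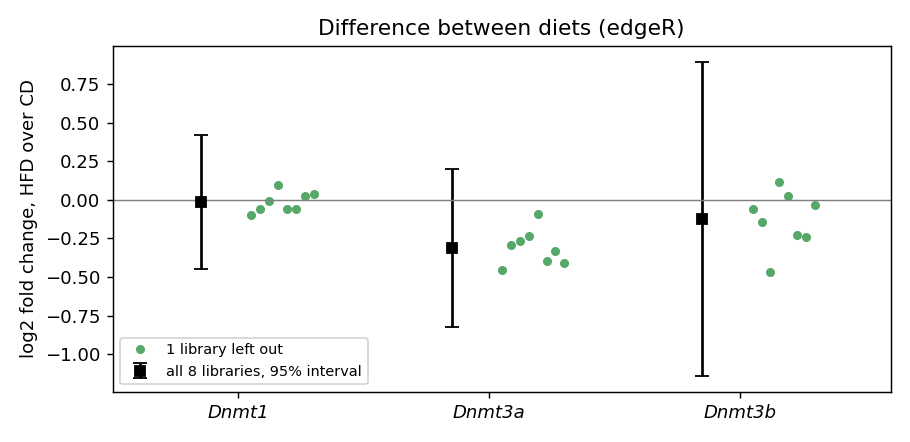
Log2 fold change of each gene, HFD over CD, from edgeR with all 8 libraries (black squares, bars are 95% intervals) and with 1 library left out at a time (green points). All 3 intervals span 0, and the Dnmt3b interval, -1.14 to 0.90, is the widest.

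The spread between rats on 1 diet was described for each member, with no test of a difference in spread between genes. The coefficient of variation of CPM was 18% on HFD and 11.2% on CD for Dnmt1, 20.7% and 29.9% for Dnmt3a, and 52.0% and 29.2% for Dnmt3b (n = 4 each). Counting error alone, taken as Poisson at each gene's mean count, gives 12.9% for Dnmt1, 11.4% for Dnmt3a and 31.8% for Dnmt3b. The values for Dnmt1 and Dnmt3b on HFD and for Dnmt3a on both diets were above this counting error, and those for Dnmt1 and Dnmt3b on CD below it. Single libraries decided this for Dnmt3a, whose coefficient was 10.6% without CD replicate 1 and 7.17% without HFD replicate 1, and for Dnmt1 on HFD, at 9.15% without replicate 4 (n = 3 each). edgeR's biological coefficient of variation was 0.171 for Dnmt1, 0.220 for Dnmt3a and 0.318 for Dnmt3b. Of the 772 genes with a mean count within 1.2-fold of that of Dnmt1, 89.4% had a coefficient at least as large. The share was 41.2% of 746 genes for Dnmt3a and 66.0% of 745 genes for Dnmt3b.

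How low counts were distributed bears on these errors. In every mRNA library more genes had a count of 2 than of 1, by 3.07 to 3.74 times (1319 against 354 genes in HFD replicate 1), and 72.3% to 78.2% of the counts of genes with a mean of 1 to 20 were even. Among genes with a mean of at least 1000 the even share was 49.6% to 51.2%, and in the piRNA counts of the small RNA libraries the ratio of 2 to 1 was 0.499 to 0.565. Among the members, 6 of 8 counts of Dnmt1, 5 of 8 of Dnmt3a and 5 of 8 of Dnmt3b were even. If the reads arrived in pairs, the counting error would be 18.2% for Dnmt1, 16.2% for Dnmt3a and 45.0% for Dnmt3b. The Dnmt1 coefficient on HFD, 18%, would then no longer be above it. With all 4 libraries of a diet, those of Dnmt3a on both diets and of Dnmt3b on HFD would stay above it. Single libraries decided this as well. The Dnmt3b coefficient on HFD was 39.8% without replicate 3 and 36.8% without replicate 4, below 45.0%. It was 59.6% without replicate 1 and 64.3% without replicate 2 (n = 3 each). For Dnmt3a, the values without CD replicate 1 (10.6%) and without HFD replicate 1 (7.17%) were below 16.2%. With counts divided by 2 and rounded up, the log2 fold changes were -0.0031 for Dnmt1, -0.31 for Dnmt3a and -0.078 for Dnmt3b, and 0 genes were called by edgeR.

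**Figure D5:**
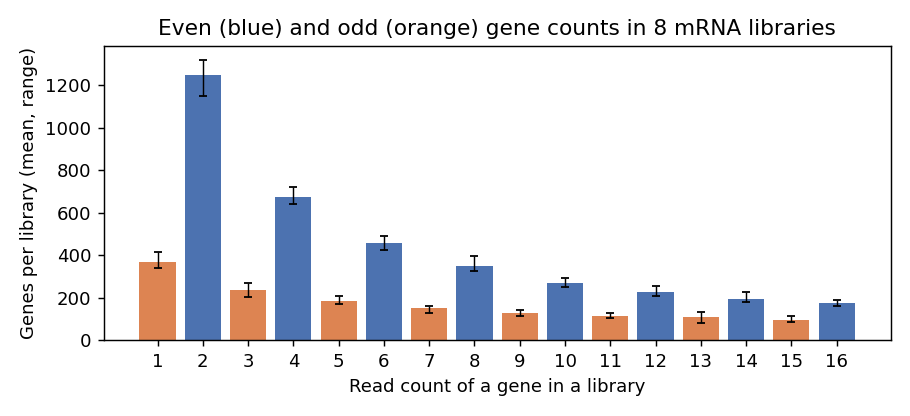
Number of genes with each read count from 1 to 16, averaged over the 8 mRNA libraries, with bars for the lowest and highest library; even counts are blue and odd counts orange. Every even count was held by more genes than the odd counts beside it.

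The members' levels were not shown to move together over the 8 rats. On log2(CPM + 1), Dnmt1 and Dnmt3a had Pearson's r = 0.191 (exact permutation p = 0.640) and Spearman's rho = 0.381 (exact permutation p = 0.360). For Dnmt3a and Dnmt3b r was 0.285 (exact permutation p = 0.497) and rho 0.143 (p = 0.752), and for Dnmt1 and Dnmt3b r was 0.304 (p = 0.461) and rho 0.310 (p = 0.462). Adjusted over the 3 pairs, the exact permutation p of r was 0.640 for each, and that of rho 0.693, 0.752 and 0.693 in the same order. Without the 2 libraries farthest from the median of the first gene, r became -0.42, 0.025 and -0.14, with 6 libraries left and the range of the first gene narrowed by the choice.

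Other genes followed single members more closely. Over the same 8 libraries and 11887 genes with a mean of at least 1 CPM, ENSRNOG00000006478 was most like Dnmt1 (r = 0.955) and ENSRNOG00000008194 most like Dnmt3a (r = 0.963), as a description that selects the highest of many values. In all, 18 genes reached r of 0.9 with Dnmt1, 18 with Dnmt3a and 10 of 11888 with Dnmt3b. With only 8 libraries some unrelated genes reach such values by chance. Whether these counts exceed the number so expected was not tested.

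The small RNA files gave no separate readout of the 3 loci. Of piRNA entries, 3 lay within the Dnmt1 span, 16 within Dnmt3a and 15 within Dnmt3b, but 0 of them were listed at a single place in the genome, so their counts could not be assigned to these genes. The miR-29, miR-148 and miR-152 families are known to bind DNA methyltransferase mRNAs. The 57 entries whose names begin with these prefixes summed to 0 counts over the 8 libraries. Such prefixes also match names with further digits, so the 57 can include miRNAs outside these families. These miRNA files count reads opposite to the annotated strand, so that the 0 says nothing of the mature miRNAs, and for such reads it allows a share of up to 0.0151% to 0.0238% of a library's miRNA counts (3 counts, counting error only).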

How the data were processed

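The authors aligned mRNA reads to rn5 with STAR 2.3.0 and counted unique alignments on Ensembl genes with featureCounts 1.4.6, keeping reverse-strand reads. The kit named in the labels does not mark strand, so this setting would keep only some of the reads. The deposited values are raw counts of reads per gene. Genes whose mean count reached 1 were kept. edgeR 4.0.16 (TMM scaling, quasi-likelihood test, diet as the only term) was run in R 4.3.3. DESeq2 1.42.0 was an alternative. The standard error is the log2 fold change divided by the square root of F. RPKM uses the files' exon lengths. Single values were compared by exact permutation tests. Samples were grouped by their labels, 4 rats per diet. No library pair was a duplicate (lowest chi-square per degree of freedom 9.09).

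The members and lists were chosen with earlier results of these data known. Text names the members and the genes most like them, by identifier for the top gene of Dnmt1 and Dnmt3a. Alternatives covered the test, scaling, filter, replicate block and each library left out; halved counts, 2 libraries left out and levels without length were added after the data were seen.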

Additional observations from a re-analysis of the deposited data

How the results depend on the processing

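No member was called by edgeR or DESeq2 under any alternative run. The Dnmt3a log2 fold change stayed below 0 in 18 of 18 alternatives (-0.46 to -0.093, smallest edgeR adjusted p 0.394). These alternatives refit the same libraries or a part of them, so their signs are not independent. The 0.394 came from the run without CD replicate 4, where 17.5% of all genes had an unadjusted p under 0.05. The smallest unadjusted edgeR p for Dnmt3a, 0.091, came from the run without HFD replicate 1. The order of the 3 genes per length held with each library left out and without division by length. Without that division Dnmt3a exceeded Dnmt1 by 0.34 on the log2 scale, against 0.85 with it. Its counts were then 1.015 to 2.25 times those of Dnmt1 in single libraries. For all genes, 0 calls became 6 with DESeq2 and shrunken fold changes, 7 without shrinkage, and 0 to 1 with 1 library left out. The cause was not tested. Dnmt1 reversed to 0.071 with raw library totals, under which the median gene moved from -0.0061 to 0.082 and the share of genes below 0 from 51.2% to 37.8%. With 1 library left out Dnmt1 ranged from -0.098 to 0.095 and Dnmt3b from -0.47 to 0.12. Without the 2 farthest libraries r was -0.42 for Dnmt1 with Dnmt3a and -0.14 for Dnmt1 with Dnmt3b.

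HFD and CD libraries share replicate numbers only, and deviations of same-numbered libraries correlated at -0.22 on average (-0.44 to 0.019). With the replicate block the log2 fold changes were -0.022 for Dnmt1, -0.29 for Dnmt3a and -0.17 for Dnmt3b, with 0 genes called and 322 against 725 at an unadjusted p under 0.05. With 1 library left out the unadjusted count was above 725 without HFD replicate 3 (865), CD replicate 3 (1054) or CD replicate 4 (3379), and 412 to 699 without each of the others.

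Depth limited Dnmt3b most. Its mean count of 9.88 gave no value under a filter at 10. The alternatives with coding length, the lists by symbol and the test of piRNAs within the genes were not run.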
